A study of Rattus norvegicus with 12 samples.

Results

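Rat liver transcriptomes are described here by the level of the fibrinogen alpha chain transcript, Fga, which split 12 libraries of 4 diet and drug groups into a low and a high state. A library was called low where Fga was under 6000 CPM, with CPM the count multiplied by 1e+06 and divided by the library total, and high otherwise. The libraries were thus chosen by their measured Fga level, and 4 of 12 were low: HFD replicates 2 and 3, Control+SAMC replicate 1, and Control replicate 2. The other 8 were high. All libraries are labelled as liver of Sprague Dawley rats, an outbred strain. The Control group had a normal diet, the Control+SAMC group a normal diet with S-allylmercaptocysteine (SAMC, an organosulfur compound of aged garlic), the HFD group a high fat diet, and the HFD+SAMC group a high fat diet with SAMC, each with 3 libraries. The labels give no dose, duration, age, sex, hour of sampling or feeding status, and they do not say that the replicates of a group are separate animals.

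Fibrinogen is a soluble clotting protein that hepatocytes assemble from an alpha, a beta and a gamma chain and secrete into plasma, where thrombin turns it into fibrin. Its 3 genes lie side by side, each with its own promoter. Fibrinogen is an acute phase protein: in inflammation, interleukin 6 acts through its receptor, JAK kinases and the transcription factor STAT3 to raise its synthesis in the liver, with interleukin 1, C/EBP factors and glucocorticoids as further inputs to the acute phase genes.

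Values of the 4 low libraries are given throughout with Control replicate 2 first, then Control+SAMC replicate 1, then replicates 2 and 3 of HFD. In this order Fga was at 2852, 3532, 4003 and 3974 CPM. In the 8 high libraries it was at 8896 CPM at the lowest, 12563 at the median and 17915 at the highest. The library just under the threshold was HFD replicate 2, at 4003 CPM, and the one just above it was HFD+SAMC replicate 1, at 8896 CPM, so no library lay near 6000 CPM. The beta chain Fgb was at 3122, 3418, 4103 and 4040 CPM in the low libraries, against 6953, 9562 and 13590 CPM (lowest, median, highest) in the high ones. The gamma chain Fgg was at 2586, 3067, 3378 and 3604 CPM, against 6411, 10444 and 15666 CPM. All 3 chains thus separated the same 4 libraries from the other 8. Fga chose the libraries and the other chains follow it, so none of them was tested between the states. Per length, the median level in the low and the high libraries was 1286 and 4305 RPKM (reads per kilobase of gene model, scaled to the library total) for Fga, 2259 and 5791 for Fgb, and 1450 and 4700 for Fgg. In the deposited table, which names no genome build, the 3 genes lie on chromosome 2 within 47947 bases, from 181987080 to 182035026. Fgg and Fga lie on the plus strand with 3038 bases between them, and Fgb lies 14317 bases further on the minus strand.

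The promoters of the 3 chains, of Serpina3n and of Mt2A are shown because these 5 transcripts mark the split. They are the 250 bases before the transcription start listed by RefSeq in the GRCr8 assembly, 5′ to 3′ on the gene's strand. In the first 4, capitals mark the STAT motif TTCNNNGAA and the interleukin 6 response element CTGGGAA on either strand. In Mt2A they mark TGCNCNC on either strand, a loose form of the metal response element core with any base at N. Fga (chr2:170671919-170672168, plus strand) and Fgb (chr2:170700876-170701125, minus strand) each hold a STAT match, Fgb and Fgg (chr2:170652833-170653082, plus strand) hold CTGGGAA, and the 2 motifs overlap in Serpina3n (chr6:129088142-129088391, plus strand). Mt2A lies at chr19:10838709-10838958 on the minus strand.
Fga: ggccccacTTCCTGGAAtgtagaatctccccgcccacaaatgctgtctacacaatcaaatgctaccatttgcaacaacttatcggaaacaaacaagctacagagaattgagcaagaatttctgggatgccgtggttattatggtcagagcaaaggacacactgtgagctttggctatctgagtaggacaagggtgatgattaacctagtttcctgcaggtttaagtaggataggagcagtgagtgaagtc
Fgb: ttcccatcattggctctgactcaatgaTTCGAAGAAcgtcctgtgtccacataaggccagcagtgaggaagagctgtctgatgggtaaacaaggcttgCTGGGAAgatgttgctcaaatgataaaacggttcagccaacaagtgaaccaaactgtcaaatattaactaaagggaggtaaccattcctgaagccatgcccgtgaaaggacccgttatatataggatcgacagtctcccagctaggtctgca
Fgg: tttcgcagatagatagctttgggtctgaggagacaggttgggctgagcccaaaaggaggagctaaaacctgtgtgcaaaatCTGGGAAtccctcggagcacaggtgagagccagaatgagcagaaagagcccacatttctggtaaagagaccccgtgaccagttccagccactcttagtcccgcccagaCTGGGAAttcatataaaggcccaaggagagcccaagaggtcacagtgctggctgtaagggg
Serpina3n: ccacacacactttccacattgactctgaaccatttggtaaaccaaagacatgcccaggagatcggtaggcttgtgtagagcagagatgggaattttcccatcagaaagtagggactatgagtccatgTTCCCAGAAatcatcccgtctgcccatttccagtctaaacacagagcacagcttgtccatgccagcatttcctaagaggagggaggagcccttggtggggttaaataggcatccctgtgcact
Mt2A: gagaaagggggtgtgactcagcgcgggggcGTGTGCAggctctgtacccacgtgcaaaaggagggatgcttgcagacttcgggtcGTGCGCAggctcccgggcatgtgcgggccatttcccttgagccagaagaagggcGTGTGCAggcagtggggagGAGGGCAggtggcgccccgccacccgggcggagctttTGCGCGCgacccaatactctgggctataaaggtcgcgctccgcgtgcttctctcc
Counted from the start, the STAT match begins at base -242 in Fga, -223 in Fgb and -123 in Serpina3n, and CTGGGAA begins at -152 in Fgb and at -169 and -61 in Fgg. Of 33469 RefSeq promoters (250 bases before to 50 after the start), 8.87% hold the STAT motif, 11.3% CTGGGAA and 49.6% TGCNCNC. Over the 11932 promoters matched to tested genes, the 382 of genes lower past the threshold below and the 386 of genes higher past it, in this order, the STAT motif was in 7.03%, 9.95% and 5.18%, CTGGGAA in 11.1%, 10.7% and 10.4%, and TGCNCNC in 59.1%, 62.8% and 62.7%. The C/EBP core TTNNGNAA was in 32.1%, 32.5% and 32.1% of them, and the glucocorticoid response element letters TGTTCT in 13.3%, 12.6% and 12.2%, against 41.3% and 20.7% of all promoters. None of these shares was tested. These are matches of letters, not measured binding.

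**Figure D1:**
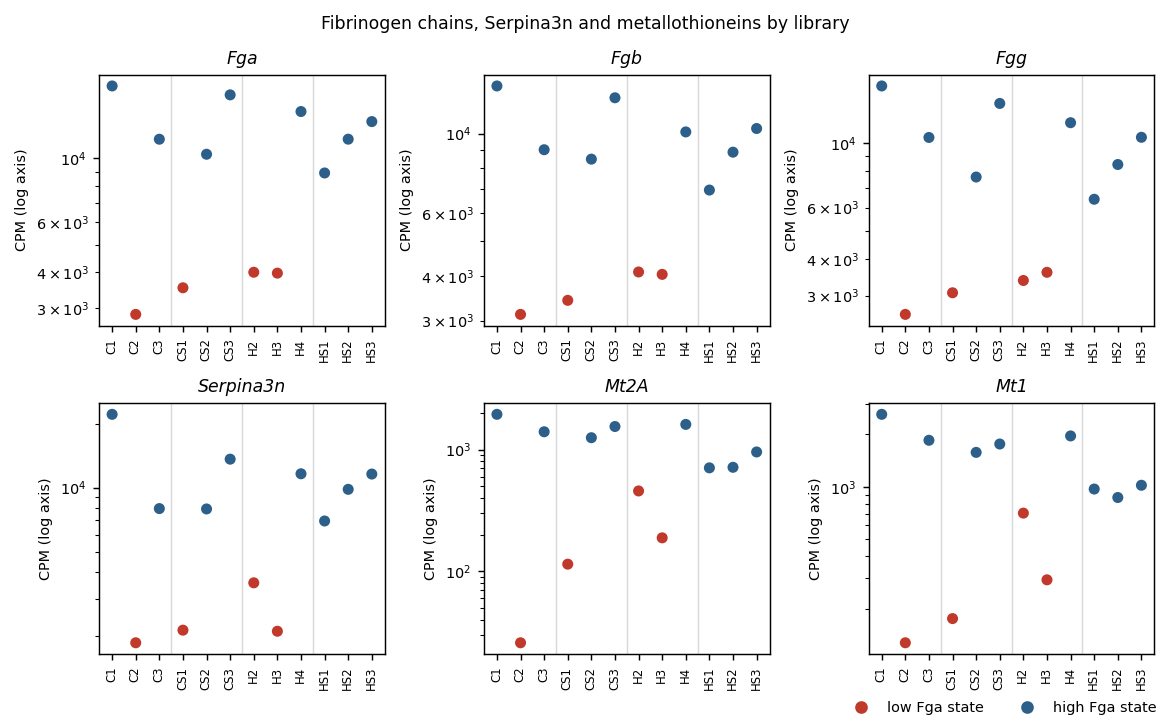
CPM (log axis) of the fibrinogen chains, Serpina3n, Mt2A and Mt1 in each of the 12 libraries, 1 point per library, with low libraries in red and high ones in blue (C, Control; CS, Control+SAMC; H, HFD; HS, HFD+SAMC, followed by the replicate number). The 4 low libraries lie under all 8 high libraries in each of the 6 panels, with Fga at 2852 to 4003 CPM against 8896 to 17915 CPM.

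The low state took 1 of 3 libraries in Control, 1 of 3 in Control+SAMC, 2 of 3 in HFD and 0 of 3 in HFD+SAMC. By diet this was 2 of 6 with the high fat diet and 2 of 6 without (Fisher's exact test, two-sided, p = 1). By SAMC it was 1 of 6 with and 3 of 6 without (Fisher's exact test, two-sided, p = 0.545), which at this number of libraries does not show that the shares are alike.

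Library totals ran from 45680738 to 61937544 counts. Total count, genes detected, and the shares of counts in mitochondrially encoded, albumin, long noncoding and hemoglobin transcripts overlapped between the states, and none of these 6 measures passed a test within groups (exact permutation over 27 reassignments within groups, two-sided, unadjusted p from 0.444 to 0.889, adjusted p = 0.889 for each, smallest possible p 0.037). Albumin took 8.84% to 21.8% of counts in the low and 7.32% to 16.3% in the high libraries, and mitochondrial transcripts 1.73% to 5.36% and 3.14% to 4.44%. Hepatocyte markers summed to 150434 to 291652 CPM in the low and 144201 to 232293 CPM in the high libraries. HFD+SAMC replicate 3, a high library, held skeletal muscle transcripts at a summed 1365 CPM, against at most 1.79 CPM in the others. In bulk RNA, fewer cells of a type and less RNA per cell cannot be told apart.

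Low and high libraries were compared across 16488 genes within groups, with diet and drug group as a term and without the 3 fibrinogen genes. Differences are log2, low minus high, ± standard error (SE), with 7 residual degrees of freedom. Since the states were cut from the same libraries, an adjusted p under 0.05 (edgeR, Benjamini-Hochberg over all genes) was used only as a threshold for naming genes, and no p is given for single genes over the 12 libraries. Where leaving out 1 library ended a gene's place past the threshold, the highest adjusted p so obtained is given. It was passed by 988 genes (5.99%), of which 498 (3.02%) were higher and 490 (2.97%) lower in the low state, and 318 of the 988 differed by more than 1 on the log2 scale. The median over all genes was -0.01. HFD+SAMC has no low library, so it enters the fit only through the spread. The number rests on single libraries: 271 genes passed without Control replicate 2, 322 without HFD replicate 4, 384 without Control+SAMC replicate 1, and 635 to 1284 without any 1 of the other 9. Without Control replicate 2, 34.7% of the genes that passed were higher, against 50.4% with it.

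**Figure D2:**
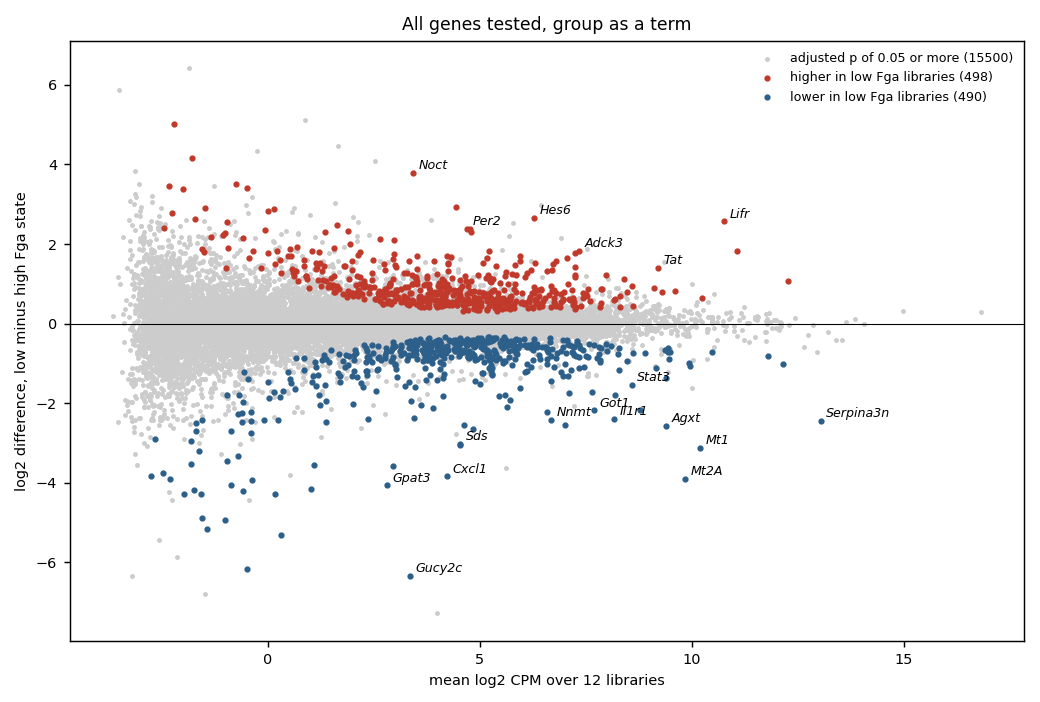
Mean log2 CPM over the 12 libraries against the log2 difference, low minus high Fga state, for each of the 16488 genes tested, with the 498 genes past the threshold on the higher side in red and the 490 on the lower side in blue. Serpina3n and the metallothioneins Mt1 and Mt2A stand out as abundant transcripts far below 0, and Lifr as an abundant transcript far above it.

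Every low library lay beyond every high library of its own group, in Control, Control+SAMC and HFD alike, for 1618 genes on the higher side (9.81%) and 1188 on the lower side (7.21%). All 4 low libraries lay beyond all 8 high libraries for 195 genes on the higher (1.18%) and 224 on the lower side (1.36%). After group means were removed, the first principal component over all tested genes except the fibrinogen genes held 25.9% of the variance. It placed the low libraries at 59.7, 40.0, 23.7 and 12.2 and the high libraries at -46.4 to 5.26. Control replicate 2 lay at the far end. In HFD more libraries were low than high, so removing the group mean drew its low libraries towards the middle of the axis. These positions thus cannot rank the distance between the states across groups. The high libraries lay at -46.4 and -13.3 in Control, at -4.73 and -35.3 in Control+SAMC, and at -35.9 in HFD.

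Among the receptors and transducers that act on acute phase genes, Stat3 and Il1r1 followed Fga most closely. Stat3, the transcription factor of the interleukin 6 pathway, was at 152, 182, 177 and 199 CPM in the low libraries, against 389, 488 and 617 CPM (lowest, median, highest) in the high ones. The groups did not overlap, and the difference was -1.53 ± 0.14, or 2.90-fold. Il1r1, the signalling receptor for interleukin 1, was at 74.2, 89.0, 83.7 and 84.7 CPM against 227, 374 and 638 CPM. That is a difference of -2.40 ± 0.25 (5.27-fold), again without overlap, and the 4 low libraries lay close together. Myd88, the adaptor below the interleukin 1 and Toll-like receptors, differed by -0.996 ± 0.12, and Irak3, an inhibitor of that cascade, by -1.36 ± 0.19; both were picked after their values were seen.

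Of 21 measured members of a list of interleukin 6, STAT3 and C/EBP signalling, 6 were lower and 2 higher past the threshold (background 2.97% and 3.02%), and the list median was -0.35 against -0.01 over all genes. Nnmt, which methylates nicotinamide and is a known STAT3 target, was at 25.7, 40.9, 21.0 and 31.7 CPM against 64.4, 133 and 272 CPM, a difference of -2.42 ± 0.20. The states did not overlap for Nnmt. Socs3, the feedback inhibitor of STAT3 signalling, differed by -1.26 ± 0.29, Cebpd, an inducible C/EBP factor, by -0.88 ± 0.18, and Junb, an immediate early AP-1 subunit, by -1.83 ± 0.37. Each of these last 3 overlapped between the states. Il6st, the shared receptor subunit gp130, did not pass, at -0.43 ± 0.13. On the higher side, Lifr, the receptor for leukaemia inhibitory factor, was at 4683, 3403, 3810 and 2081 CPM against 168, 689 and 1900 CPM, a difference of 2.57 ± 0.62. The states did not overlap for Lifr, although its high libraries spread widely. Tyk2, a JAK family kinase, differed by 0.52 ± 0.12. Stat3, Il1r1, Nnmt, Myd88 and Irak3 stayed past the threshold whichever library was left out. Cebpd lost its place without Control+SAMC replicate 1 or HFD replicate 4 (adjusted p up to 0.0953, edgeR). Socs3, Junb, Lifr and Tyk2 lost theirs without any 1 of 11, 6, 9 and 7 libraries (up to 0.178, 0.141, 0.135 and 0.230), Control replicate 2 among them for each.

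**Figure D3:**
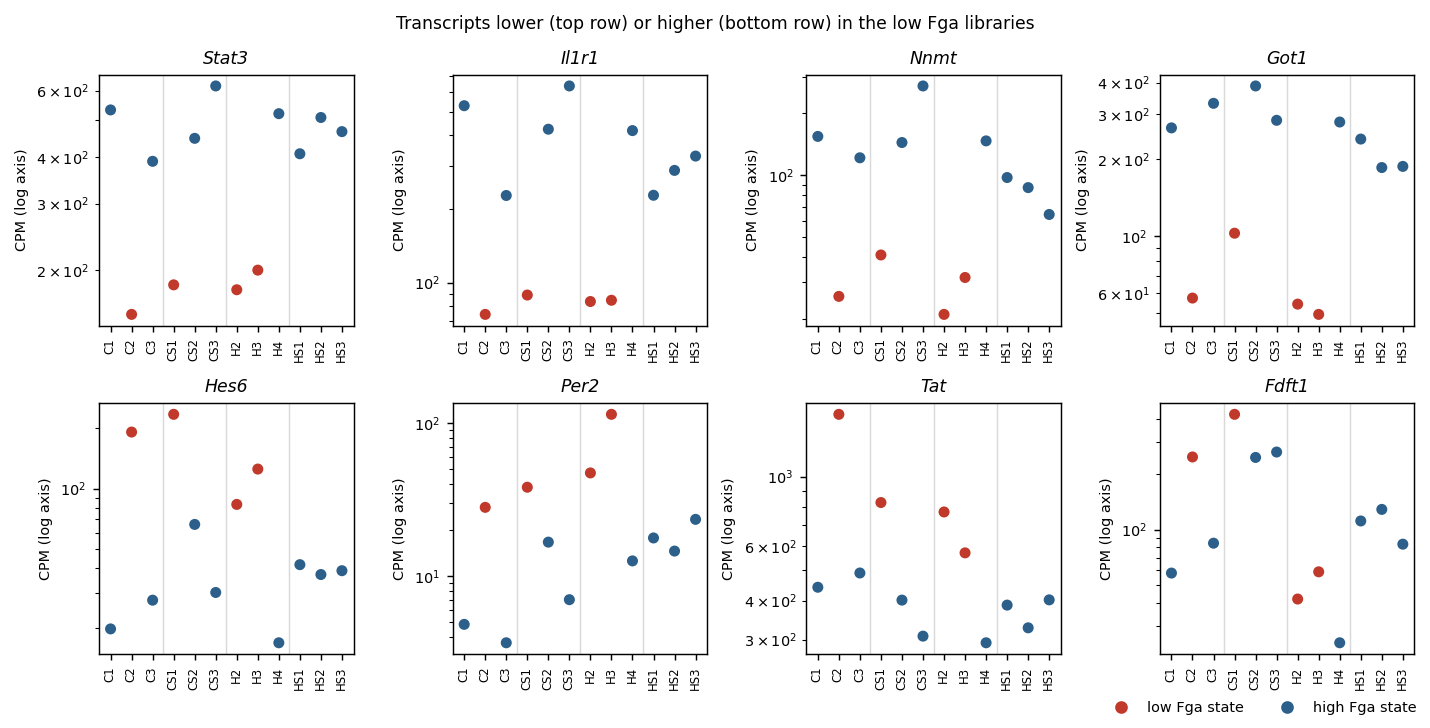
CPM (log axis) of 4 transcripts that were lower (top) and 4 that were higher (bottom) in the low Fga state, by library, in the same layout and colours as the plot of the marker transcripts. Stat3, Il1r1, Nnmt, Got1, Hes6, Per2 and Tat separate the states without overlap, while Fdft1 separates them within each group but not across groups.

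Among the secreted acute phase proteins the difference was uneven. Of 28 measured positive acute phase genes beside fibrinogen, 4 were lower and 0 higher past the threshold (2.97% and 3.02% of all genes), 23 were below 0, and the median was -0.39. For 13 of the 28 the low libraries lay under the high ones of their own group in Control, Control+SAMC and HFD, where 7.21% of all genes did. Serpina3n, an inhibitor of serine proteases, was at 1861, 2133, 3562 and 2108 CPM in the low libraries against 6959, 10687 and 22092 CPM in the high ones. It differed by -2.44 ± 0.35 (5.44-fold) with no overlap. Il1rn, the natural antagonist of the interleukin 1 receptor, was at 3.83, 4.18, 6.67 and 5.87 CPM against 7.20, 11.3 and 21.2 CPM (-1.47 ± 0.26, no overlap). Saa4, a serum amyloid A carried on lipoproteins, differed by -1.06 ± 0.22 without overlap, and Agt, the precursor of angiotensin, by -0.99 ± 0.17 with a slight overlap.

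Several well known members did not pass, chosen here as textbook examples after the values were seen. A2m, the classical rat acute phase protein alpha-2-macroglobulin, was barely expressed and differed by -2.48 ± 0.76. Lbp, which binds bacterial lipopolysaccharide, differed by -0.95 ± 0.31, Hamp, the iron hormone hepcidin, by -0.93 ± 0.29, Orm1, orosomucoid, by -0.77 ± 0.40 (0.20 within HFD alone), and Hp, haptoglobin, by -0.59 ± 0.22. Serpina1, alpha-1-antitrypsin, was at -0.42 ± 0.17. Of 18 negative acute phase genes, which fall in inflammation, none passed in either direction, and their median was 0.09. Of 24 coagulation factors and inhibitors other than fibrinogen none passed either, with a median of 0.04. Among 28 complement genes, 2 passed, a share near the 5.99% of all genes. They were the mannose-binding lectins Mbl1, at 0.63 ± 0.15, and Mbl2, at 0.89 ± 0.22. Serpina3n, Agt and Il1rn stayed past the threshold whichever library was left out. Saa4 lost it without Control replicate 2 or HFD replicate 4 (adjusted p up to 0.104, edgeR), and Mbl1 and Mbl2 without any 1 of 7 libraries (up to 0.244 and 0.190).

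Metallothioneins, small cysteine-rich proteins that bind zinc and copper and are induced by metals, glucocorticoids and inflammation, showed some of the widest gaps. Mt2A was at 25.9, 115, 457 and 189 CPM in the low libraries against 708, 1326 and 1947 CPM in the high ones. It differed by -3.91 ± 0.65, with Control replicate 2 lowest by far and HFD replicate 2 nearest the high libraries. Mt1 was at 127, 175, 706 and 293 CPM against 868, 1667 and 2604 CPM, a difference of -3.13 ± 0.41 (8.74-fold), also without overlap. The third gene, Mt1m, was at 0.292, 0.941, 5.74 and 2.28 CPM against 4.59, 10.1 and 17.3 CPM (-3.58 ± 0.55), and its values are uncertain, since reads of near-identical metallothionein copies can be shared. Slc39a14, a zinc and iron importer, differed by -0.74 ± 0.13 without overlap. These were the 4 of 8 listed metallothionein and zinc genes that passed, all lower, where 2.97% of all genes were (list median -0.39). Mt1, Mt1m and Slc39a14 kept their place past the threshold whichever library was left out, and Mt2A lost it without Control+SAMC replicate 1 (adjusted p 0.0623, edgeR). Mt1 and Mt2A are neighbours on chromosome 19 with 4958 bases between them. The Mt2A promoter printed above holds 5 matches to TGCNCNC, the loose form of the metal response element core. Of the promoters matched to tested genes, 59.1% hold these letters.

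Of 28 listed genes of the urea cycle and amino acid catabolism, 6 were lower and 2 higher past the threshold (2.97% and 3.02% of all genes), with a median of -0.32, and in 10 the low libraries lay under the high ones in all 3 groups (7.21% of all genes). Got1, the cytosolic aspartate aminotransferase, was at 57.3, 103, 54.2 and 49.4 CPM against 186, 273 and 388 CPM. It differed by -2.18 ± 0.18 (4.53-fold) with no overlap. Sds, serine dehydratase, was at 9.30, 3.37, 4.51 and 2.22 CPM against 13.3, 35.5 and 47.3 CPM (-3.02 ± 0.49). Agxt, which converts glyoxylate to glycine and is not among those 6 but among the 15 largest differences on the lower side, was at 163, 184, 206 and 87.1 CPM against 347, 1003 and 1419 CPM (-2.57 ± 0.46). Neither overlapped between the states. In the urea cycle, the mitochondrial ornithine carrier Slc25a15 differed by -1.16 ± 0.16, argininosuccinate lyase Asl by -0.89 ± 0.13, carbamoyl phosphate synthetase Cps1 by -0.81 ± 0.19 and arginase Arg1 by -0.72 ± 0.19.

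Against this, Tat, tyrosine aminotransferase and a classical glucocorticoid-induced enzyme, was higher in the low state, at 1585, 826, 770 and 569 CPM against 293, 394 and 490 CPM (1.41 ± 0.20, no overlap). Cth, cystathionine gamma-lyase, was higher too, by 1.65 ± 0.30. Got1, Slc25a15, Asl and Tat stayed past the threshold whichever library was left out. Agxt lost it without Control replicate 2 or HFD replicate 4 (adjusted p up to 0.105, edgeR), and Sds without Control+SAMC replicate 1 or HFD replicate 4 (up to 0.0808). Cps1, Cth and Arg1 lost it without any 1 of 4, 3 and 10 libraries (up to 0.202, 0.119 and 0.295).

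Glucocorticoid receptor targets did not move as one group. Of 19 listed, 4 were lower and 1, Tat, higher past the threshold (2.97% and 3.02% of all genes), with a median of -0.12. Fkbp5, a chaperone that dampens the receptor, was at 7.96, 15.2, 15.8 and 24.6 CPM against 23.3, 36.4 and 47.8 CPM (-1.44 ± 0.17), so that only HFD replicate 3 reached into the high range. Pdk4, which shuts pyruvate away from oxidation in fasting, was at 22.1, 55.9, 47.6 and 51.4 CPM against 68.4, 93.6 and 329 CPM (-2.56 ± 0.45), without overlap. Gadd45g, a stress-induced growth regulator, differed by -1.02 ± 0.14, and both Fkbp5 and Gadd45g stayed past the threshold whichever library was left out. Among 19 fasting and insulin response genes, Angptl4, an inhibitor of lipoprotein lipase, differed by -1.44 ± 0.31, Ppargc1a, a coactivator of gluconeogenesis, by -0.83 ± 0.20 and Srebf1 by 1.51 ± 0.30, and the median was -0.21. Pdk4 lost its place without Control replicate 2 or HFD replicate 4 (adjusted p up to 0.109, edgeR), Angptl4 and Ppargc1a without any 1 of 4 libraries (up to 0.120 and 0.196), Srebf1 without Control replicate 2 (0.102).

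Genes of the cholesterol list lay on the higher side in the low state almost throughout, at levels that depended also on the group. Of 27 listed, 8 were higher and 0 lower past the threshold (3.02% and 2.97% of all genes), 26 were above 0, and the median was 0.95. The low libraries lay above the high ones in all 3 groups for 17 of the 27, where 9.81% of all genes did. Fdft1, squalene synthase, was at 248, 423, 41.9 and 58.9 CPM against 24.2, 97.8 and 264 CPM (1.22 ± 0.25). Across groups the ranges overlapped. The HFD libraries were lower in both states. The high libraries Control+SAMC replicates 2 and 3, at 247 and 264 CPM, reached the level of Control replicate 2, a low library. The same direction past the threshold was found for Sqle (1.27 ± 0.29), Lss (1.65 ± 0.33), Mvd (1.51 ± 0.32), Mvk (0.91 ± 0.21), Msmo1 (1.79 ± 0.41) and Fdps (0.95 ± 0.24), all enzymes between mevalonate and cholesterol. None of these 7 kept its place whichever library was left out. Fdft1 lost it without Control replicate 2 or HFD replicate 4 (adjusted p up to 0.101, edgeR). The other 6 lost it without any 1 of 4 to 9 libraries, up to 0.304 for Fdps.

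In lipogenesis, 4 of 25 genes were higher and 0 lower past the threshold (3.02% and 2.97% of all genes), with a median of 0.52. Srebf1, the transcription factor of fatty acid synthesis, was at 293, 174, 72.2 and 134 CPM against 45.2, 70.6 and 86.9 CPM. Only HFD replicate 2 lay in the high range. Acacb, the mitochondrial acetyl-CoA carboxylase, differed by 1.17 ± 0.22, and Dgat2 and Agpat2, which build triglycerides, by 0.79 ± 0.17 and 0.66 ± 0.14. Dgat2 did not overlap between the states, at 945, 851, 934 and 724 CPM against 377, 524 and 567 CPM. Each of these 4 lost its place without 1 to 3 libraries, Control replicate 2 among them for Srebf1, Acacb and Dgat2 and HFD replicate 4 for Agpat2 (adjusted p from 0.102 to 0.172 at the highest, edgeR). None of 24 genes of fatty acid oxidation and ketogenesis passed, with a median of 0.03.

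**Figure D4:**
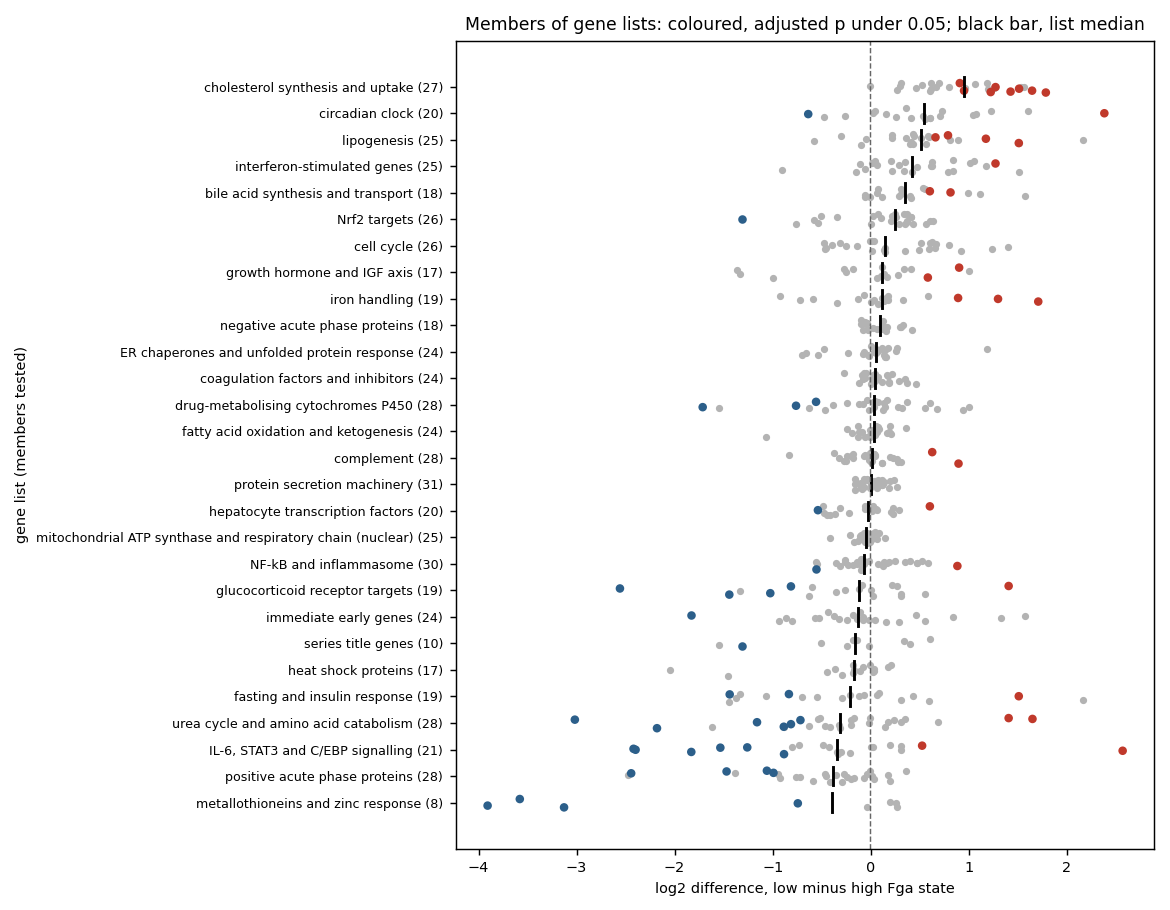
Log2 difference, low minus high Fga state, for the members of 28 gene lists, 1 point per gene, with members past the threshold in red (higher) or blue (lower), the list median as a black bar and the median of all genes as a dashed line. Lists are ordered by their median, from metallothioneins and zinc response at -0.39 to cholesterol synthesis and uptake at 0.95.

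The widest difference on the higher side among the genes named was that of Noct, nocturnin, a rhythmic phosphatase that acts on NADP cofactors. It was at 48.6, 15.8, 14.8 and 23.3 CPM in the low libraries against 0.660, 2.03 and 4.17 CPM in the high ones. It differed by 3.78 ± 0.54 (13.8-fold) with no overlap. Per2, a repressor of the circadian clock, was at 28.1, 38.1, 47.2 and 114 CPM against 3.66, 13.6 and 23.5 CPM (2.38 ± 0.39, no overlap). Hes6, a helix-loop-helix repressor, was at 192, 235, 83.3 and 125 CPM against 16.9, 33.6 and 66.1 CPM (2.65 ± 0.28, no overlap). In the deposited table Hes6 and Per2 are neighbours on the minus strand of chromosome 9, with 3715 bases between them. Of 20 clock genes, 1 was higher (Per2) and 1 lower (Nfil3, a repressor, at -0.64 ± 0.15) past the threshold, near the 3.02% and 2.97% of all genes, while 17 were above 0 and the median was 0.54. Hlf and Dbp, clock output factors, did not pass, at 1.23 ± 0.32 and 1.04 ± 0.62. The hour of sampling is not given, and its part in these values was not tested. Hes6 stayed past the threshold whichever library was left out. Noct lost it without Control replicate 2 (adjusted p 0.0667, edgeR), Per2 without that library or HFD replicate 4 (up to 0.101), and Nfil3 without any 1 of 3 libraries (up to 0.183).

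The rest of the 15 largest differences on the higher side ran from 1.81 to 2.93. They were Arhgef19, a guanine nucleotide exchange factor (2.93 ± 0.66), Igsf9 (2.48 ± 0.62), Wdr6 (2.38 ± 0.34), Apitd1, a centromere and DNA repair protein (2.30 ± 0.28), Slc13a4, a sulfate transporter (2.30 ± 0.31), Mmd2 (2.14 ± 0.48), Cyp26a1, which degrades retinoic acid (2.10 ± 0.38), Lama3, a laminin chain (2.01 ± 0.44), Rab40b (1.89 ± 0.23), Adck3, a kinase-like protein of coenzyme Q synthesis (1.82 ± 0.32), and Sgk2 (1.81 ± 0.31). Wdr6 was at 59.2, 51.5, 52.2 and 46.8 CPM against 6.65, 13.2 and 22.9 CPM, with the low libraries close together and no overlap. Igsf9 was at 2.41, 1.82, 13.7 and 14.3 CPM, so that the HFD libraries stood apart from the other low ones. Apitd1, Slc13a4 and Rab40b stayed past the threshold whichever library was left out, while Arhgef19 and Igsf9 lost it without any 1 of 10 (adjusted p up to 0.225 and 0.261, edgeR). Wdr6 lost it without Control replicate 2 (0.0527) and Sgk2 without Control+SAMC replicate 1 (0.0717). Adck3 and Cyp26a1 lost it without Control replicate 2 or HFD replicate 4 (up to 0.109 and 0.105), and Lama3 and Mmd2 without any 1 of 4 and 6 libraries (up to 0.115 and 0.169).

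On the lower side the widest difference was that of Gucy2c, the intestinal guanylate cyclase receptor for guanylin. It was at 0.0389, 0.328, 0.116 and 0.506 CPM against 4.97, 14.1 and 26.7 CPM, near absence in all 4 low libraries (-6.34 ± 0.76, 81.2-fold). Gpat3, which starts triglyceride synthesis, was at 0.798, 0.525, 0.870 and 1.21 CPM against 2.36, 3.68 and 38.7 CPM (-4.07 ± 0.79), where the highest library stood far from the median. Cxcl1, a chemokine for neutrophils, was at 2.16, 0.919, 4.06 and 3.90 CPM against 3.38, 28.5 and 46.7 CPM (-3.84 ± 0.74), and its lowest high library lay among the low ones. Rgs16, a regulator of G protein signalling, differed by -2.66 ± 0.48, Tubb6, a tubulin, by -2.55 ± 0.56, Fmo2, a flavin monooxygenase, by -2.47 ± 0.35, and Card14, a scaffold of NF-kB signalling, by -2.41 ± 0.32. Gucy2c, Fmo2 and Card14 stayed past the threshold whichever library was left out. Gpat3, Cxcl1 and Tubb6 lost it without any 1 of 5 or 6 libraries (adjusted p up to 0.123, 0.123 and 0.161, edgeR), and Rgs16 without Control replicate 2 or Control+SAMC replicate 1 (up to 0.101).

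**Figure D5:**
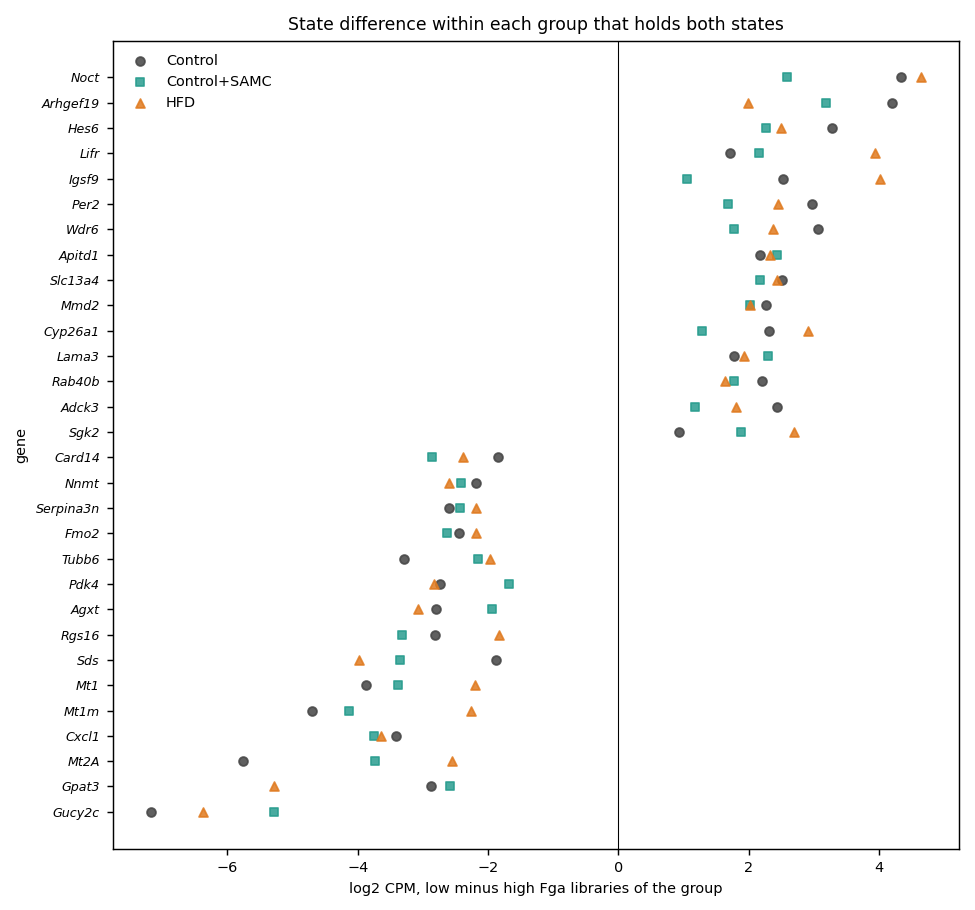
Log2 CPM difference, low minus high libraries, within Control (circles), Control+SAMC (squares) and HFD (triangles) for the 15 largest differences each way. All 30 genes point the same way in the 3 groups, which the rule for naming them required, while their sizes differ, as for Mt2A, which is widest in Control and narrowest in HFD.

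Among the other lists few members passed, to be read against 3.02% of all genes on the higher and 2.97% on the lower side. Iron handling had 3 of 19 on the higher side: Id1, a target of bone morphogenetic protein signalling (1.71 ± 0.27), Tfrc, the transferrin receptor (1.30 ± 0.22), and Steap3, a ferrireductase (0.89 ± 0.21). Bile acid synthesis and transport had 2 of 18, the export pump Abcc2 (0.81 ± 0.17) and the bile acid receptor Nr1h4 (0.60 ± 0.16). The growth hormone and IGF axis had 2 of 17, the receptor Ghr (0.90 ± 0.20) and the IGF carrier Igfals (0.58 ± 0.13). The list of drug-metabolising P450 genes had 3 of 28 on the lower side, while 16 were above 0 and the median was 0.03. These 3 were the receptor Nr1i2 (-0.56 ± 0.13), the reductase Por (-0.76 ± 0.20) and 1 P450, Cyp2a2 (-1.71 ± 0.44). Cyp2a2 was at 0.136 to 1.30 CPM in the low and 0.258 to 7.22 CPM in the high libraries, and belongs to a family of near-identical copies. Of the genes named from these lists, Id1 stayed past the threshold whichever library was left out. The others lost it without 2 to 10 libraries (adjusted p up to 0.437 for Cyp2a2, edgeR). Endoplasmic reticulum chaperones (24 genes), protein secretion (31), heat shock proteins (17), cell cycle (26) and the nuclear-encoded respiratory chain (25) had no member past the threshold, with medians from -0.17 to 0.14.

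Interferon-stimulated genes had 21 of 25 above 0, a median of 0.42 and 1 on the higher side past the threshold, near the 3.02% of all genes: Gbp2, an interferon-induced GTPase (1.27 ± 0.23). Cxcl10, a chemokine for T cells, was at 5.17, 5.17, 5.96 and 6.95 CPM against 0.511, 2.96 and 3.79 CPM, and Mx1, an antiviral GTPase, differed by 1.52 ± 0.41, but neither passed. Of 30 NF-kB and inflammasome genes, 1 was higher and 1 lower past the threshold, near the 3.02% and 2.97% of all genes. They were Il1a, interleukin 1 alpha (0.88 ± 0.17, no overlap), and P2rx7, an ATP-gated channel (-0.55 ± 0.13). The list median was -0.07 against -0.01 over all genes. Gbp2 lost its place without Control replicate 2 (adjusted p 0.0875, edgeR), Il1a without that library or HFD replicate 4 (up to 0.0806), P2rx7 without any 1 of 5 (up to 0.132).

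Neutrophil markers were the cell type list with the lowest median, -1.88 over 9 tested of 12. S100a8, a calprotectin subunit, and Mmp8, neutrophil collagenase, were past the threshold (2 of 9, where 2.97% of all genes were lower), and 5 of 9 were lower in all 3 groups (7.21% of all genes). The list was not uniform: 3 of 9 were above 0. Among these 3, Fcgr3a, a more abundant marker, was higher in all 3 groups (0.76 ± 0.23) but did not pass. S100a8 was at 0.136, 0.131, 0.116 and 0.199 CPM against 0.384, 0.854 and 1.75 CPM (-2.75 ± 0.52). Mmp8 was at 0.0778, 0, 0.0193 and 0.145 CPM against 0.426, 0.949 and 2.07 CPM (-3.94 ± 0.87). These are traces, and the summed markers overlapped, at 9.39 to 67.3 CPM in the low and 14.8 to 92.2 CPM in the high libraries, with 2 of the 12 at 0 in all low libraries. The part of neutrophils in the other differences was not tested. S100a8 and Mmp8 lost their place without any 1 of 3 and 5 libraries (adjusted p up to 0.0675 and 0.115, edgeR). Markers of Kupffer cells, T and NK cells, B cells, cholangiocytes, erythroid cells, muscle and pancreas had no member past the threshold. Kupffer cell and macrophage markers summed to 843 to 1624 CPM in the low and 658 to 1232 CPM in the high libraries. Single markers passed for endothelium (Pecam1, -0.47 ± 0.11, 1 of 13 tested) and stellate cells (Pdgfra, -0.67 ± 0.13, 1 of 15). Others passed for adipocytes (Cidec, -1.08 ± 0.24, 1 of 6, also a hepatocyte lipid droplet protein) and platelets (Itga2b, 0.53 ± 0.14, 1 of 4). Of all genes, 2.97% were lower and 3.02% higher past the threshold. In these lists 6, 3, 1 and 1 tested members, in this order, went the other way. Summed adipocyte markers were at 510 to 1244 CPM in the low and 403 to 908 CPM in the high libraries. Single genes are thus not read as a result about a cell type. Each of these genes lost its place without any 1 of 2 to 8 libraries (adjusted p up to 0.263 for Itga2b, edgeR).

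Of the genes of the pathways named in the series title, 10 were tested and 1 passed, where 5.99% of all genes did. It was Hmox1, heme oxygenase, a target of Nrf2, at 33.5, 98.7, 78.1 and 104 CPM against 124, 162 and 237 CPM (-1.31 ± 0.22, no overlap). Hmox1 stayed past the threshold whichever library was left out. The aryl hydrocarbon receptor Ahr was at 0.60 ± 0.36, its targets Cyp1a1 and Cyp1a2 at -1.55 ± 1.22 and -0.24 ± 0.18, the Nrf2 gene Nfe2l2 at 0.33 ± 0.10 and its target Nqo1 at -0.51 ± 0.28. The NF-kB subunits Nfkb1 and Rela were at -0.14 ± 0.09 and -0.18 ± 0.12, their inhibitor Nfkbia at -0.02 ± 0.22, and the inflammasome sensor Nlrp3 at 0.40 ± 0.22. Nlrp6 was too low to be tested. Of 26 Nrf2 targets, Hmox1 alone passed, near the 2.97% of all genes on the lower side, and 20 were above 0, with a median of 0.25. The signs of Ahr, Cyp1a1, Cyp1a2, Nqo1, Nfkbia and Nlrp3 changed within single groups or under other settings given in the closing section.

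The transcripts most like Fga, by Pearson correlation of log2 CPM over the 12 libraries after group means were removed, were Twf1, an actin-binding protein, Eprs, a transfer RNA synthetase, Stat3, Il1r1 and Ptpn12, a tyrosine phosphatase (each r from 0.98 to 0.99). The 5 most opposed were Ttc39c, Hes6, Wrn, a DNA helicase, Idh1, the cytosolic isocitrate dehydrogenase that makes NADPH, and Npepo (r from -0.98 to -0.97). Eprs was at 254, 365, 348 and 355 CPM in the low libraries against 520, 717 and 820 CPM in the high ones (-1.12 ± 0.15), and Idh1 at 408, 532, 467 and 480 CPM against 246, 292 and 390 CPM (0.80 ± 0.11). Neither overlapped. Twf1 (-0.88 ± 0.11), Ptpn12 (-0.66 ± 0.10), Ttc39c (0.80 ± 0.12) and Npepo (1.11 ± 0.17) differed less widely but tightly. These 4, Eprs and Idh1 stayed past the threshold whichever library was left out, and Wrn (0.46 ± 0.10) lost it without any 1 of 3 (adjusted p up to 0.116, edgeR). The libraries share their totals and scaling across genes, and r is given as a description. All these transcripts were picked for following or opposing Fga in the same libraries, and Fga cut the states. Their small SE and their place past the threshold, also with a library left out, largely follow from that choice and test nothing.

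Whether the low minus high difference itself varied between Control, Control+SAMC and HFD was tested by an interaction over 17525 genes, with 5 residual degrees of freedom. It passed for 1 gene (0.00571%), an immunoglobulin segment (edgeR quasi-likelihood F test, Benjamini-Hochberg), with 812 genes at an unadjusted p under 0.05. Control and Control+SAMC have 1 low library each, so this test sees only wide differences.

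The labelled comparisons, which the split did not use, were fitted with the state as a further term. Between HFD and Control, 80 genes (0.485%) passed with the state held constant, and 23 (0.145%) without it. For HFD+SAMC against HFD it was 38 (0.23%) against 8 (0.0503%), for Control+SAMC against Control 40 (0.243%) against 19 (0.119%), and for HFD+SAMC against Control+SAMC 35 (0.212%) against 10 (0.0628%). The 23, 8 and 10 genes of the first, second and last comparison passed both ways, as did 18 of the 19 of the other. Of the 80, 38, 40 and 35 genes that passed with the state, 23, 16, 12 and 9 had also passed between the states, where 5.99% of all genes did. Of those that passed without it, 0, 0, 1 and 0 had. The fits kept 16491 genes with the state and 15916 without it. The state was cut from Fga in these libraries, so the rise in counts is no measure of a diet or drug effect. Leaving out any 1 library moved the counts with the state to between 2 and 122, 1 and 70, 8 and 74, and 2 and 57, in the order given. Without the state, the SE of Fga between HFD and Control was 0.73 around a difference of -0.72 (adjusted p = 0.77, edgeR). Stat3 differed by -0.48 ± 0.55 without and -0.05 ± 0.16 with the state (adjusted p = 0.808 and 0.948, edgeR), and Il1r1 by -0.69 ± 0.88 and -0.10 ± 0.27 (adjusted p = 0.833 and 0.941). Both genes were picked for following Fga, and the state was cut from Fga. Their smaller differences and SE with the state thus follow from that choice and test nothing.

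Sqle, Fdps and Fdft1, cholesterol genes past the threshold between the states, also had wide diet differences, with the state as a term and without it. Between HFD and Control, Sqle differed by -2.81 ± 0.36 with the state (adjusted p = 0.0156, edgeR) and by -2.64 ± 0.60 without it (adjusted p = 0.163). Fdps differed by -2.49 ± 0.30 with it (adjusted p = 0.00745) and by -2.33 ± 0.45 without it (adjusted p = 0.098). Fdft1 differed by -2.22 ± 0.30 with it (adjusted p = 0.0156) and by -2.04 ± 0.55 without it (adjusted p = 0.224). The size of the diet difference of Sqle, Fdps and Fdft1 hardly moved between the fits, while its SE fell. These genes were picked for differing between the states, so the fall in SE and adjusted p follows from that choice. It is no result about diet. Tat passed with the state, at -1.24 ± 0.24 (adjusted p = 0.0488), and Nnmt passed in HFD+SAMC against Control+SAMC with the state, at -1.49 ± 0.22 (adjusted p = 0.0395). Both are near the threshold and were also past it between the states. Leaving out libraries was followed in these labelled comparisons only for the counts of genes, not for single genes.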

How the data were processed

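Liver RNA was ribosome-depleted, made into libraries with a NEBNext Ultra kit and sequenced as paired reads of 150 bp, per the labels' protocols. Trimmomatic 0.36 and FastQC are named in the submitters' processing notes. Per the labels' protocols, the authors aligned the reads with HISAT2 and then used HTSeq for the deposited counts of each gene. The same deposited table holds RPKM values per gene and library from the authors, and a gene length. The strand setting, like the build and annotation, is not given in the sources used here, so reads of overlapping or antisense genes cannot be told apart, and genes with near-identical copies (metallothioneins, P450 and hemoglobin families) are uncertain.

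Groups and replicate numbers come from the labels. Plain CPM was computed from the counts and used for the split and for printed levels. Totals of 45680738 to 61937544 counts per library set the precision. Of 40154 genes, 14180 had no count. The filterByExpr function kept 16488 genes, with 99.97% of counts, beside Fga, Fgb and Fgg. They were fitted in R 4.3.3 with edgeR 4.0.16 (TMM scaling, robust quasi-likelihood, group and state as terms, two-sided, Benjamini-Hochberg, threshold 0.05; common biological coefficient of variation 0.268). SE is the absolute log2 difference divided by the square root of F. Chi-square values of pairs of libraries within a group, divided by their degrees of freedom, were 87.9 to 645, so none counted as a repeat of another. P-values measure the spread between these libraries, which may be technical.

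Named were the fibrinogen genes, Serpina3n and Mt2A, the 15 largest differences each way past the threshold (mean log2 CPM of at least 1, low libraries beyond high ones in 3 groups), up to 4 members per list by smallest p, the title genes, and the 5 genes most and least like Fga. Members past the threshold beyond those 4 per list, and genes marked so in the text, were added after their values were seen. The rule and the lists were chosen with earlier results of these data known. Promoters came from RefSeq (144 of 195 genes named by the rule matched). DESeq2 1.42.0, limma 3.58.1, other scalings and filters, a replicate block and leaving out each library were alternatives. The code was tested on simulated data. Some items are not reported here.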

Additional observations from a re-analysis of the deposited data

Results flagged for a closer look

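The low minus high difference of Ighv, an immunoglobulin heavy chain variable segment, differed between groups by the test of state and group together (edgeR quasi-likelihood F test, adjusted p = 0.0488 over 17525 genes). It was 3.67 on the log2 scale in Control, -0.12 in Control+SAMC and -1.08 in HFD. Control has 1 low library, so the first value rests on Control replicate 2. Reads of such segments can be shared between near-identical copies. The labelled groups have 3 libraries each, too few for a check of single outlying libraries.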

How the results depend on the processing

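Against 988 genes past the threshold between the states (498 higher, 490 lower), DESeq2 gave 1744 (929 and 815), which held all 988. Leaving the HFD+SAMC group out gave 617 (331 and 286), no group term 541 (264 and 277), and log2 Fga as a number 1545 (812 higher). Library totals with no TMM factor gave 311 lower genes. Leaving out each library in turn gave 271 to 1284 genes (94 to 661 higher, 154 to 623 lower), and 0 to 2 for state by group. Other scalings, filters and limma-voom stayed within 1.5 times. The cause of these changes was not tested.

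Replicate numbers did not pair the libraries: of 15 same-numbered pairs 2 had a correlation over 0.1 (range -0.214 to 0.232), and 2 of 12 libraries correlated best with their own number. With a replicate block 39 genes passed (18 higher, 21 lower), all among the 988.

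For the labelled comparisons in the order of the report (HFD minus Control, HFD+SAMC minus HFD, Control+SAMC minus Control, HFD+SAMC minus Control+SAMC), 80, 38, 40 and 35 genes passed with the state. Without it the counts were 23, 8, 19 and 10. With a replicate block they were 38, 1, 21 and 3, and in the high libraries alone 3, 0 and 22 for the first 3. Leave-one-out ranges were 2 to 122, 1 to 70, 8 to 74 and 2 to 57.

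Of 94 named genes past the threshold, 32 stayed there whichever library was left out; 56 lost it without Control replicate 2, 46 without HFD replicate 4 and 40 without Control+SAMC replicate 1. Signs reversed for genes that had not passed: Nfkbia (leave-one-out range -0.331 to 0.223) without Control+SAMC replicate 1 (0.22), without Control+SAMC replicate 2 (0.13), without HFD replicate 4 (0.01), with no group term (0.14), with Fga as a number (0.0270), with the replicate block (0.0391) and in Control alone (0.54); in Control alone Nlrp3 (-0.11) and Cyp1a2 (0.20); in Control+SAMC alone Cyp1a1 (0.00203), Nqo1 (0.0812) and Dbp (-0.104); in HFD alone Ahr (-0.10) and Orm1 (0.197).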
